A study of Mus musculus with 10 samples.

Results

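The insulin-like growth factor (IGF) axis was followed through 10 genes in mouse embryonic fibroblasts (MEFs), cultured connective-tissue cells taken from embryos. The genes were taken by symbol: the ligand Igf1, the receptor Igf1r, the binding proteins Igfbp2 to Igfbp7 and the receptor substrates Irs1 and Irs2. They are 10 of 22552 genes listed in the deposited tables. Genes were tested where their FPKM averaged 1 or more over the 8 RNA-seq libraries, which 10901 did, 9 of the 10 among them. Igfbp5 did not. FPKM are counts of fragments divided by transcript length and by the mapped fragments of the library, so levels can be set side by side between genes.

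IGF1 is a secreted peptide that binds the receptor tyrosine kinase encoded by Igf1r. The active receptor phosphorylates the adaptor proteins IRS1 and IRS2, which pass the signal to PI3K, AKT and mTOR, while other adaptors feed the Ras-MAPK branch. Secreted IGF-binding proteins hold the ligand outside the cell, extend its life and set how much of it reaches the receptor, and embryonic fibroblasts are a classic cell type for studying this growth signal.

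Polyadenylated RNA came from 4 groups of 2 libraries: mock-transfected MEFs at 32 °C, MEFs transfected at 37 °C with siRNA against Cirbp (siCirbp), MEFs transfected at 37 °C with siRNA against Rbm3 (siRbm3), and mock-transfected MEFs at 37 °C. Cirbp and Rbm3 encode RNA-binding proteins whose levels are known to go up in mild cold. The comparisons address how cooling, and siRNA against either protein, alters the transcriptome. A further 2 libraries hold PAR-CLIP sites, where RNA labelled with 100 µM 4-thiouridine for 16 h was crosslinked to FLAG-tagged Cirbp or FLAG-tagged Rbm3 in MEF lines that stably express the tagged protein, at 37 °C. The control is a mock transfection in every case, with no control siRNA among the groups, and the 3 comparisons with mock 37 °C share its 2 libraries. The labels give neither the time at 32 °C nor the origin of the cells, and they leave unsaid whether 2 libraries of a group came from 2 cultures, or whether a different siRNA was used in each. A p-value here measures only the spread between these libraries, which may be technical.

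Depth ran from 25.1 to 28.2 M mapped fragments per RNA-seq library. Libraries of the same group differed, as a median over tested genes of the absolute log2 difference, by 0.107 for mock 32 °C, 0.261 for siCirbp, 0.313 for siRbm3 and 0.0879 for mock 37 °C. At 32 °C Cirbp RNA averaged 35.9 FPKM, against 16.5 FPKM in mock 37 °C, and passed (log2 fold change 1.07, limma adjusted p = 0.0313). Rbm3 RNA averaged 3.42 FPKM at 32 °C and 2.03 FPKM in mock 37 °C and did not pass (log2 fold change 0.55, limma adjusted p = 0.191). Cirbp stood at 10.8 and 6.07 FPKM in the siCirbp libraries, against 15.9 and 17.1 FPKM in mock 37 °C, a log2 fold change of -0.94 that did not pass (limma adjusted p = 0.116). In the same siCirbp libraries Rbm3 stood at 5.54 and 7.55 FPKM, above both mock 37 °C libraries (log2 fold change 1.31, limma adjusted p = 0.0588). Rbm3 stood at 3.05 and 1.16 FPKM in the libraries labelled siRbm3, against 1.85 and 2.21 FPKM in mock 37 °C. Replicate 1 of the siRbm3 label thus held more Rbm3 RNA than either mock 37 °C library, which goes against its label, and every direction given below for that group is one of libraries so labelled. Of 14 fibroblast markers 12 passed the filter on low values, with Thy1 at 0 and Fap at most 0.0294 FPKM in every library. Their sum lay at 11219 to 13979 FPKM in mock cells at 32 °C, 6203 to 7110 in siCirbp, 9894 to 11994 in siRbm3 and 9793 to 9845 in mock 37 °C, and at 32 °C 3 of the 12 were higher and 5 lower by limma. The higher sum at 32 °C was mostly S100a4, which averaged 8754 FPKM there and 4368 FPKM in mock 37 °C. Dcn also had a higher mean, 1142 against 564 FPKM. Means were lower at 32 °C for Vim (1888 against 2931 FPKM), Col1a1 (186 against 725) and Fn1 (244 against 739). The summed macrophage markers lay at 30.5 to 36.0 FPKM in mock cells at 32 °C, 14.2 to 15.0 in siCirbp, 13.1 to 25.0 in siRbm3 and 17.6 to 20.6 in mock 37 °C. Cd68 and Cd14 were the only 2 of these 8 markers to reach a mean of 1 FPKM, while the defining markers Emr1, Ptprc and Itgam stayed at or below 0.0318 FPKM. The summed neural markers lay at 17.5 to 18.5 FPKM in mock cells at 32 °C, 57.1 to 77.0 in siCirbp, 64.0 to 68.4 in siRbm3 and 50.4 to 53.9 in mock 37 °C, mostly Sox2 and Nes. The epithelial sum was 0.118 to 0.227 FPKM in mock 32 °C, 1.39 to 1.48 in siCirbp, 2.54 to 7.75 in siRbm3 and 1.41 to 1.80 in mock 37 °C. Of its 8 markers 7 averaged under 1 FPKM, and Krt19 was the exception. The endothelial sum was 13.1 to 14.0 FPKM in mock 32 °C, 12.1 to 20.5 in siCirbp, 16.8 to 18.6 in siRbm3 and 18.9 to 20.2 in mock 37 °C. The muscle sum was 49.1 to 52.7 FPKM in mock 32 °C and 62.2 to 66.0 in mock 37 °C, and the adipocyte sum was 30.0 to 30.2 in mock 32 °C and 19.3 to 20.4 in mock 37 °C. Fabp4 carried the higher adipocyte sum at 32 °C, where its mean was higher (26.7 against 10.1 FPKM). The mean of Lipe was lower there (2.89 against 9.01 FPKM). These were the only 2 of 7 adipocyte markers to pass the filter, and by limma 0 were higher and 1 lower. The part of the marker genes of all these lists in the results below was not tested, and fewer cells of a type cannot be told apart from less RNA per cell in bulk RNA.

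At 32 °C the receptor, one of its substrates and one binding protein were lower than in mock 37 °C, and another binding protein was higher. Igfbp3 and Igf1r had the smallest adjusted p among the 10 genes, with levels at 32 °C of 0.743 ± 0.261 FPKM for Igfbp3 and 9.09 ± 0.237 FPKM for Igf1r, against 4.18 ± 0.117 and 19.6 ± 0.0669 FPKM in mock 37 °C (SD, n = 2 each). Irs2 was lower too and Igfbp2 higher, while Igf1, Igfbp4, Igfbp6, Igfbp7 and Irs1 did not pass the test. In limma, fitted to log2(FPKM + 1) of all 10901 tested genes, 4 of 9 genes passed an adjusted p of 0.05, 3 of them lower and 1 higher. Among all tested genes 32.8% passed in this comparison, 19.8% lower and 13% higher, which is 2153 and 1420 genes. With each sample centred on its median these were 1721 lower and 2110 higher, and the median log2 fold change of all genes moved to 0.11. The median log2 fold change was 0.14 over the 9 genes and -0.02 over all tested genes. The 32 °C and mock 37 °C libraries did not overlap for any of the 9 genes, which was also so for 84.9% of all tested genes. Without any 1 of the 4 mock libraries the calls fell to 2, Igf1r and Igfbp3.

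The sequences just before the transcription start of these 4 genes are shown because they are the stretches nearest to where RNA synthesis of the genes that passed begins. Each is the 250 bases before the start in RefSeq on GRCm38.p6, read 5′ to 3′ on the gene's strand. Capitals mark exact matches, on either strand, to the letters of 6 elements: TATAAA for the TATA box, CCAAT for the box of that name, GGGCGG for the GC box, CACGTG for the E-box, TGACGTCA for the cAMP response element (CRE) and GTAAACA for the FoxO element. None of these 6 letter strings overlaps another in these windows. The second start that RefSeq lists for Igfbp2 is not shown.
Igf1r, chr7:67952007-67952256, plus strand: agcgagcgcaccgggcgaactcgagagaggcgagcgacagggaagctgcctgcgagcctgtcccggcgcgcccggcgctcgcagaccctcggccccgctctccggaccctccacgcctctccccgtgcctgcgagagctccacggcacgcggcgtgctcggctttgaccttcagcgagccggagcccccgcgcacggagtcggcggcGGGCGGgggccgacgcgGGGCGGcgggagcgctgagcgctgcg
Igfbp3, chr11:7213924-7214173, minus strand: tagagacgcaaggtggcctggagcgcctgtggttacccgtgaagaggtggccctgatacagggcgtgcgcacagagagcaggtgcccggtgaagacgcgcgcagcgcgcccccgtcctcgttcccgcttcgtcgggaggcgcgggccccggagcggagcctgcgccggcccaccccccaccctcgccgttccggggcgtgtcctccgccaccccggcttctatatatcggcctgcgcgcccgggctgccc
Irs2, chr8:11008930-11009179, minus strand: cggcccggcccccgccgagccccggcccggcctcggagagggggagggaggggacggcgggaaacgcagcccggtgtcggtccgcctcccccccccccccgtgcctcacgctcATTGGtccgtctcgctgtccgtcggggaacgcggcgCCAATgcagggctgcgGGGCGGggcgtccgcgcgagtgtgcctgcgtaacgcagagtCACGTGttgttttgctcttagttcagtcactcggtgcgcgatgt
Igfbp2, chr1:72824230-72824479, plus strand: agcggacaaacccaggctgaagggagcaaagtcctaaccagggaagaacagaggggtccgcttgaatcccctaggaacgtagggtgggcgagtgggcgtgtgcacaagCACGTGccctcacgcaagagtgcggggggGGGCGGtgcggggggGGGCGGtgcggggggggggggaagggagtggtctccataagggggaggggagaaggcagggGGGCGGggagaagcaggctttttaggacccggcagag

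All 4 windows were rich in G and C, at 77.6% for Igf1r, 73.2% for Igfbp3, 72.8% for Irs2 and 67.2% for Igfbp2, beside a median of 52.4% over 32851 RefSeq promoters. The Igf1r window held 2 GC boxes, the recognition letters of Sp1-type factors, that begin 43 and 26 bases before the start. The Igfbp2 window held 3 GC boxes and an E-box, and the Irs2 window held 2 CCAAT boxes, a GC box and an E-box that begins 44 bases before the start. No exact match to the letters of the 6 elements was found in the Igfbp3 window. It holds the run tatatat, and other spellings of the TATA box were not searched. Over all RefSeq promoters 32.7% held a GC box, 33.9% a CCAAT box, 6.02% an E-box, 12.4% a TATA box, 1.55% a CRE and 3.17% a FoxO element. All 10 genes matched the RefSeq table, with 11 promoters. Elsewhere among them the TATA box letters were found before Igfbp4 and Igfbp6, and the CRE and FoxO letters before none of the genes. Genes that did not pass shared the other traits. The Igfbp7 window had 74% G and C and 4 GC boxes, and that of Irs1 72.4%, 2 GC boxes and an E-box. Igfbp4 had 69.2%, Igfbp5 58.8%, Igf1 52.8% and Igfbp6 49.6% G and C, with CCAAT boxes before Igf1 and Igfbp6. A match is a string of letters and not a site of binding.

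Igf1, the ligand, lies at chr10:87321800-87399792 on mm9, the build of the deposited tables. It stood at 6.38 and 7.32 FPKM in the mock 32 °C libraries, 7.13 and 2.87 in siCirbp, 6.20 and 4.12 in siRbm3, and 5.74 and 5.76 in mock 37 °C. Both 32 °C libraries were above both mock 37 °C libraries, and each siRNA group had 1 library above and 1 below them. The log2 fold change was 0.22 at 32 °C (SE 0.34, limma adjusted p = 0.651) and -0.27 in siCirbp (limma adjusted p = 0.679), and neither passed.

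The Igf1 value is a sum over 5 listed transcripts, 3 of which carried it. A pair of long ones, of 7069 and 7121 nt, span the whole locus, and a short one of 1087 nt runs from 87323855 to 87378515. In mock 32 °C the short transcript stood at 0.385 and 0.847 FPKM and took 6.03% and 11.6% of the gene's FPKM. Its share was 37.2% and 31.5% in siCirbp, 28.2% and 53.8% in the libraries labelled siRbm3, and 19.2% and 19.7% in mock 37 °C, where it stood at 1.102 and 1.14 FPKM. In FPKM it stood at 2.66 and 0.902 in siCirbp and at 1.74 and 2.22 under the siRbm3 label, so siCirbp replicate 2 had a higher share than mock 37 °C at a lower level of the short transcript. The 32 °C libraries had the lowest shares and the 4 siRNA libraries the highest, with no overlap with mock 37 °C in share. These shares had no test. The lower and upper bounds that the authors deposited for the short transcript were wide, 0.0609 to 0.709 FPKM in replicate 1 of mock 32 °C and 0.578 to 1.63 FPKM in replicate 1 of mock 37 °C.

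Igf1r, the receptor, lies at chr7:75097142-75378553 on mm9 and has a listed transcript of 11978 nt. It stood at 9.25 and 8.92 FPKM in mock cells at 32 °C, 15.0 and 13.6 in siCirbp, 17.3 and 18.7 in siRbm3, and 19.6 and 19.5 in mock 37 °C. The groups were ordered with no overlap, lowest at 32 °C and highest in mock 37 °C. Behind these values stood 3060 and 2790 reads at 32 °C and 6504 and 6282 reads in mock 37 °C. Igf1r fell at 32 °C, with a log2 fold change of -1.03 (n = 2 per group, SE 0.14, limma adjusted p = 0.00321). In siCirbp the log2 fold change was -0.43 (SE 0.14, limma adjusted p = 0.111), which did not pass although both libraries lay below both of mock 37 °C. With the trend of fold change over transcript length removed across all genes, the 32 °C value became -0.47 and lost its call (limma adjusted p = 0.118).

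**Figure D1:**
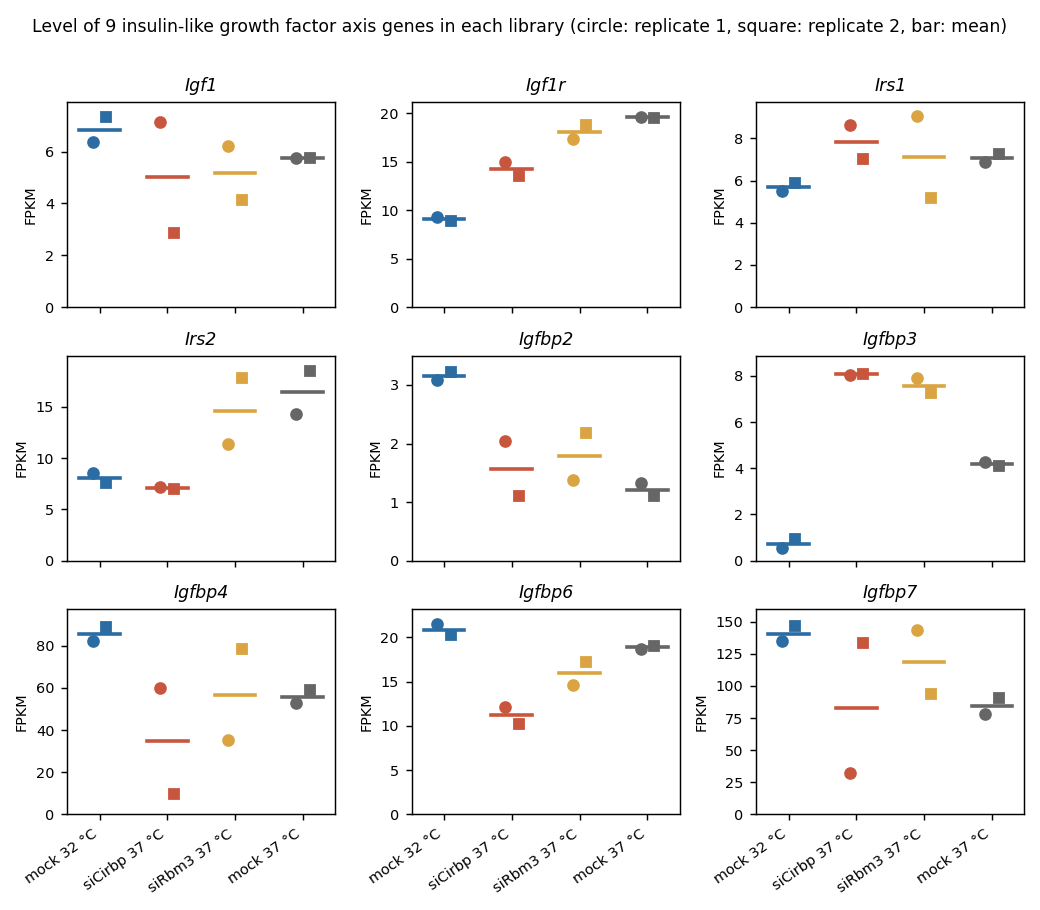
FPKM of the 9 tested genes in each RNA-seq library, 1 panel per gene with its own axis from 0, with groups from left to right mock 32 °C, siCirbp, siRbm3 and mock 37 °C. Circles are replicate 1, squares replicate 2 and bars the mean of 2. Igf1r is lowest at 32 °C, at 9.25 and 8.92 FPKM, Igfbp3 is below 1 FPKM only at 32 °C, and the siCirbp points of Igfbp4 and Igfbp7 lie far apart.

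The 6 binding proteins spanned a wide range of levels. Igfbp7 and Igfbp4 were the highest in every group by their means, and Igfbp5 was nearly absent. Igfbp7, a matrix-associated relative that binds IGF weakly, averaged 141 ± 8.14 FPKM in mock 32 °C and 84.2 ± 9.10 FPKM in mock 37 °C (SD, n = 2 each). Igfbp4, which sequesters IGF until a protease cuts it, averaged 85.4 ± 4.67 FPKM in mock 32 °C and 55.9 ± 4.50 FPKM in mock 37 °C. Igfbp7 stood above Igfbp4 in 7 of the 8 libraries, and replicate 1 of siCirbp was the exception.

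Igfbp3, the main IGF carrier of blood and a secreted growth inhibitor in many cells, lies at chr11:7106095-7113926 on mm9. It stood at 0.56 and 0.93 FPKM in mock cells at 32 °C, 8.04 and 8.08 in siCirbp, 7.89 and 7.24 in siRbm3, and 4.26 and 4.10 in mock 37 °C. The 32 °C libraries were the lowest and the 4 siRNA libraries the highest, with no overlap with mock 37 °C on either side. Reads numbered 35 and 55 in mock cells at 32 °C, 482 and 507 in siCirbp, 477 and 406 in siRbm3, and 268 and 250 in mock 37 °C. Igfbp3 fell at 32 °C, with a log2 fold change of -1.58 (n = 2 per group, SE 0.16, limma adjusted p = 0.00218). Because the scale adds 1 FPKM, that value understates the change of a gene at this level, and with 0.1 FPKM added it was -2.38.

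Igfbp2, a carrier prominent in embryonic tissues, lies at chr1:72871076-72899045 on mm9. It stood at 3.09 and 3.23 FPKM in mock cells at 32 °C, 2.04 and 1.103 in siCirbp, 1.38 and 2.18 in siRbm3, and 1.33 and 1.102 in mock 37 °C. Both 32 °C libraries were above all 6 others. The level rested on few reads, 95 and 94 at 32 °C and 41 and 33 in mock 37 °C. Igfbp2 rose at 32 °C, with a log2 fold change of 0.91 (n = 2 per group, SE 0.23, limma adjusted p = 0.0222), a call lost without any 1 of the 4 mock libraries. Its neighbour Igfbp5, at chr1:72904638-72921439, had at most 5 reads in any library and got no fold change. Those reads were 0 and 1 in mock cells at 32 °C, 5 and 0 in siCirbp, 0 and 2 in siRbm3, and 1 and 0 in mock 37 °C.

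Igfbp4, at chr11:98902573-98913957 on mm9, stood at 82.0 and 88.6 FPKM in mock cells at 32 °C, 59.8 and 9.47 in siCirbp, 35.1 and 78.4 in siRbm3, and 52.7 and 59.0 in mock 37 °C. The mock libraries agreed closely within each group, and the siCirbp libraries differed 6.31-fold from each other. Igfbp7, at chr5:77778264-77837070, stood at 135 and 146 FPKM in mock cells at 32 °C, 32.6 and 133 in siCirbp, 143 and 93.7 in siRbm3, and 77.8 and 90.7 in mock 37 °C. Here the siCirbp libraries differed 4.09-fold, in the opposite sense to Igfbp4: replicate 1 was low for Igfbp7 and replicate 2 was low for Igfbp4. The log2 fold change at 32 °C was 0.60 for Igfbp4 (SE 0.83, limma adjusted p = 0.608) and 0.74 for Igfbp7 (SE 0.57, limma adjusted p = 0.350). All 4 groups share 1 estimate of spread in that fit, and with the 2 mock groups alone both passed (limma adjusted p = 0.000630 for Igfbp4 and 0.000335 for Igfbp7). Igfbp7 also passed without either siCirbp library (limma adjusted p = 0.0466).

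Igfbp6, which prefers IGF2 over IGF1, lies at chr15:101974616-101979943 on mm9. It stood at 21.5 and 20.2 FPKM in mock cells at 32 °C, 12.2 and 10.3 in siCirbp, 14.7 and 17.2 in siRbm3, and 18.7 and 19.1 in mock 37 °C. The siCirbp libraries were the lowest of all. Igfbp6 just missed the threshold there, at a log2 fold change of -0.71 (SE 0.15, limma adjusted p = 0.0519).

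Summed over the 6 genes, binding-protein RNA came to 242 and 259 FPKM in mock cells at 32 °C, 115 and 162 in siCirbp, 202 and 199 in siRbm3, and 155 and 174 in mock 37 °C. Igfbp7 made up 55.7% and 56.4% of that sum at 32 °C and 50.2% and 52.1% in mock 37 °C. Within siCirbp it made up 28.4% in replicate 1 and 82.2% in replicate 2, where Igfbp4 took 52.1% and 5.84%. In the libraries labelled siRbm3 Igfbp7 made up 70.8% and 47.1% and Igfbp4 17.4% and 39.5%. The shares of these 2 genes were thus close among the 4 mock libraries and differed between the libraries of each siRNA group. Igfbp3 took 0.231% and 0.357% of the sum at 32 °C and 2.75% and 2.36% in mock 37 °C.

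**Figure D2:**
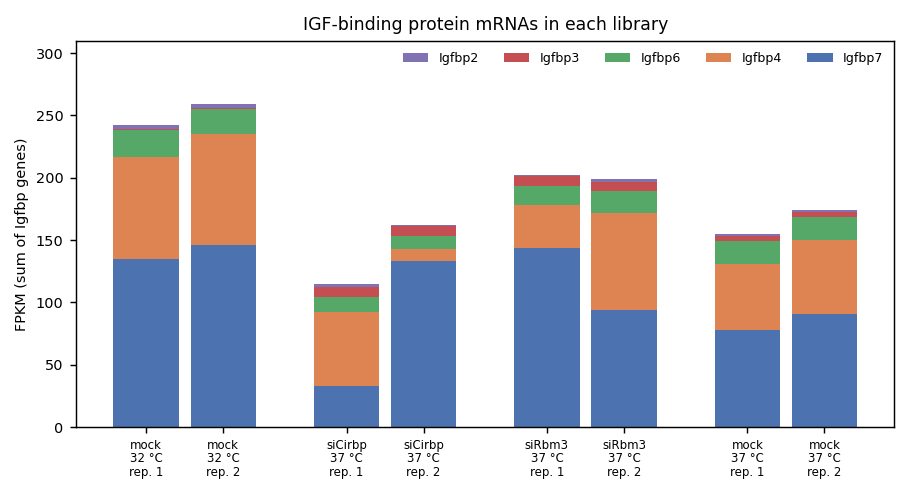
Stacked FPKM of 5 IGF-binding protein genes in each library, Igfbp5 being too low to draw, with mock 32 °C, siCirbp, siRbm3 and mock 37 °C from left to right and colours for genes. The sum is highest in mock 32 °C, at 242 and 259 FPKM, and the shares of Igfbp4 and Igfbp7 differ between the libraries of each siRNA group.

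Irs2, a receptor substrate whose RNA is known to respond to FoxO and cAMP signals in liver, lies at chr8:10986963-11008430 on mm9. It stood at 8.52 and 7.57 FPKM in mock cells at 32 °C, 7.21 and 7.03 in siCirbp, 11.4 and 17.8 in siRbm3, and 14.3 and 18.5 in mock 37 °C. All libraries of mock 32 °C and siCirbp were below all libraries of the other 2 groups. Irs2 fell at 32 °C, with a log2 fold change of -0.94 (n = 2 per group, SE 0.23, limma adjusted p = 0.0193), a call lost without any 1 of the 4 mock libraries. Irs1, the other substrate, lies at chr1:82229679-82288014. It stood at 5.52 and 5.90 FPKM in mock cells at 32 °C, 8.63 and 7.02 in siCirbp, 9.07 and 5.18 in siRbm3, and 6.90 and 7.27 in mock 37 °C. Its log2 fold change at 32 °C was -0.27 (SE 0.24, limma adjusted p = 0.412), and only with the 2 mock groups alone did it pass (limma adjusted p = 0.0234).

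By mean level in mock 37 °C the order was Igfbp7, Igfbp4, Igf1r at 19.6 ± 0.0669, Igfbp6 at 18.9 ± 0.234, Irs2 at 16.4 ± 2.93, Irs1 at 7.09 ± 0.264, Igf1 at 5.75 ± 0.0177, Igfbp3 at 4.18 ± 0.117 and Igfbp2 at 1.22 ± 0.160 FPKM (SD, n = 2). Igfbp6 and Irs2 did not differ beyond their spread. In mock 32 °C the receptor, Irs2 and Igf1 stood close, at 9.09 ± 0.237, 8.04 ± 0.671 and 6.85 ± 0.663 FPKM. In siCirbp Igfbp3, Irs1 and Irs2 lay together at 8.06 ± 0.0270, 7.83 ± 1.14 and 7.12 ± 0.129 FPKM, and no order among Igfbp3 and Irs1 was resolved.

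In siCirbp cells Igfbp3 was higher and Irs2 lower than in mock 37 °C. The log2 fold change was 0.81 for Igfbp3 (n = 2 per group, SE 0.16, limma adjusted p = 0.0468) and -1.09 for Irs2 (n = 2 per group, SE 0.23, limma adjusted p = 0.0487). These were 2 calls of 9 tested genes, where 3.39% of all tested genes passed, 2.77% higher and 0.624% lower, which is 302 and 68 genes. With the length trend removed 40 were higher and 41 lower, and with quantile scaling 280 and 124. The median log2 fold change was -0.34 over the 9 genes and 0.08 over all tested genes. The libraries did not overlap for 4 of the 9, Igf1r, Igfbp3, Igfbp6 and Irs2, beside 60.4% of all tested genes. Both calls lie close to the threshold. They were lost with a pseudocount of 0.1 FPKM, with no filter, with the highest transcript only and with the 2 groups alone. Leaving out any 1 mock library or siCirbp replicate 2 also gave 0 calls, and without either library labelled siRbm3 there were 4: Igf1r, Igfbp3, Igfbp6 and Irs2. Without siCirbp replicate 1 the 2 calls were of other genes, Igfbp4 and Igfbp6.

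In the libraries labelled siRbm3 none of the 9 genes passed limma, and none of all 10901 did (0%). At an unadjusted p under 0.05 there was 1, Igfbp3, at a log2 fold change of 0.72 (SE 0.16, limma adjusted p = 0.350). Both of its libraries so labelled, at 7.89 and 7.24 FPKM, lay above both mock 37 °C libraries, at 4.26 and 4.10 FPKM. The groups did not overlap for 5 of 9 genes, beside 50.5% of all tested genes. Irs2 stood at 14.6 ± 4.51 FPKM under this label and 16.4 ± 2.93 FPKM in mock 37 °C (SD, n = 2 each), with a log2 fold change of -0.18 (SE 0.23, limma adjusted p = 0.709). The median log2 fold change was -0.08 over the 9 genes and 0.12 over all tested genes.

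Set directly against each other, the siCirbp and siRbm3 libraries gave no call among the 9 genes in limma, with 3 at an unadjusted p under 0.05 and 0.0367% of all tested genes called, 0.0183% higher and 0.0183% lower. The 2 groups did not overlap for 4 of the 9, beside 36.3% of all tested genes. Irs2 stood at 7.21 and 7.03 FPKM in siCirbp and at 11.4 and 17.8 FPKM under the siRbm3 label, a log2 difference of -0.91 (SE 0.23, limma adjusted p = 0.221). That difference passed only without siRbm3 replicate 1 (limma adjusted p = 0.00894). Igfbp3 differed by 0.08 (SE 0.16, limma adjusted p = 0.827) and Igfbp6 by -0.47 (SE 0.15, limma adjusted p = 0.259). For Igfbp4 and Igfbp7 the spread between the libraries of 1 group was larger than the difference between the groups.

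**Figure D3:**
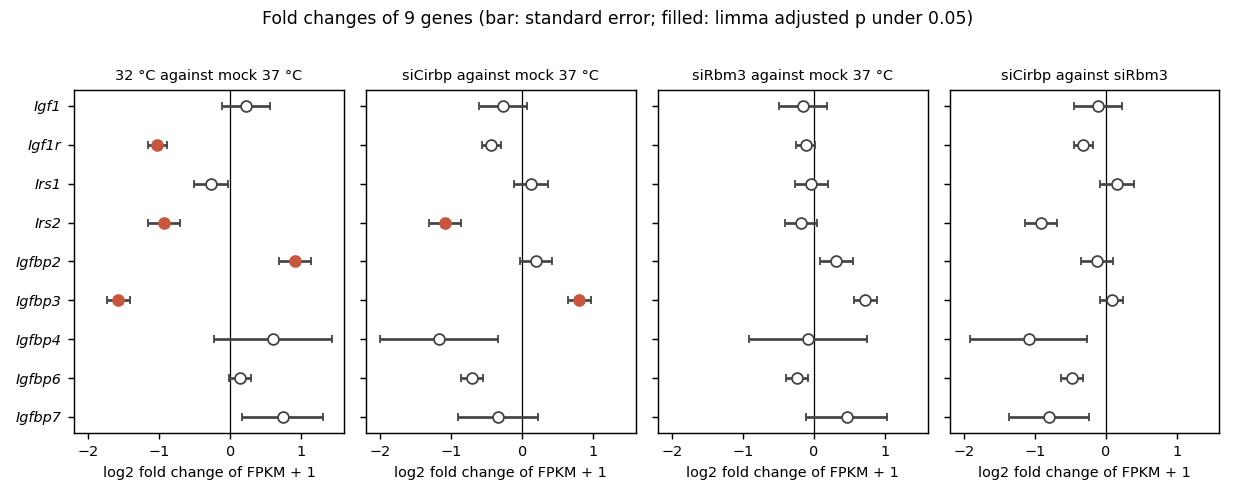
Log2 fold change on the log2(FPKM + 1) scale of the 9 tested genes for 32 °C, siCirbp and siRbm3, each against mock 37 °C, and for siCirbp against siRbm3, with bars of 1 SE and filled points for limma adjusted p under 0.05. Filled points are Igf1r, Igfbp2, Igfbp3 and Irs2 at 32 °C and Igfbp3 and Irs2 in siCirbp, and the bars of Igfbp4 and Igfbp7 are the widest.

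Among the deposited binding sites, 1941 of Cirbp and 2118 of Rbm3, only 1 lay in the locus of any of the 10 genes. It is a Cirbp site in Igf1r at chr7:75249788-75249818 on mm9, 31 nt on the plus strand, which is the strand of the gene, with the crosslinked position at 75249816. The site lies 153 kb into a locus of 281 kb. Whether it is exonic or intronic was not analysed here. Its score as deposited by the authors was 282, rank 1056 of 1941, and 54.4% of Cirbp sites scored higher. No Rbm3 site lay in any of the 10 loci. Among all tested genes 8.32% held a Cirbp site and 8.79% an Rbm3 site, and of 408 tested genes with a locus of at least 200 kb 9.07% held a Cirbp site. With 1 library per protein and no control library these counts have no test.

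Around the 10 genes, lists of IGF pathway genes were read in the same fit. At 32 °C the list of signal dampers and the FoxO arm had 11 of 23 tested genes lower and 1 higher, with a median log2 fold change of -0.73, beside -0.02 over all tested genes, of which 19.8% were lower and 13% higher. Trib1, a pseudokinase that recruits the COP1 ubiquitin ligase, averaged 6.10 FPKM in mock 32 °C and 20.6 FPKM in mock 37 °C and fell by -1.61 on the log2 scale (SE 0.18, limma adjusted p = 0.00237). Foxo3, a transcription factor that AKT holds out of the nucleus, averaged 11.1 FPKM in mock 32 °C and 32.4 FPKM in mock 37 °C (log2 fold change -1.46, limma adjusted p = 0.00260). Inppl1, the lipid phosphatase SHIP2, averaged 18.4 FPKM in mock 32 °C and 52.1 FPKM in mock 37 °C (log2 fold change -1.45, limma adjusted p = 0.00287). Phlpp1, a phosphatase of AKT, also fell (log2 fold change -0.77, limma adjusted p = 0.0108). The other genes that fell were Socs1, Socs3, Foxo1, Foxo4, Sh2b1, Sh2b2 and Sh2b3, named here after their values were seen, of which Sh2b1 is known as an adaptor that enhances receptor signalling and not as a damper. The gene that rose, also named after its value was seen, was Socs2, an inhibitor of growth hormone signalling, at 22.7 FPKM in mock 32 °C and 8.002 FPKM in mock 37 °C (log2 fold change 1.40, limma adjusted p = 0.0117). With the trend over transcript length removed, 9 of these genes were lower, 1 was higher and the median was -0.48. Without any 1 of the 4 mock libraries 3 or 4 were lower, and Trib1, Foxo3 and Inppl1 kept their calls without each of the 8 libraries.

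The PI3K, AKT and mTOR list had 8 of 25 tested genes lower and 2 higher at 32 °C, with a median of -0.18. All tested genes had 19.8% lower and 13% higher. Tsc2, a brake on mTOR, fell (log2 fold change -0.92, limma adjusted p = 0.00427), though its log2 fold change was -0.58 with the length trend removed. Eif4ebp2, a repressor of cap-dependent translation (-0.85, limma adjusted p = 0.00542), and Pik3r2, a regulatory PI3K subunit (-0.89, limma adjusted p = 0.00898), fell as well. Rheb, the small GTPase that activates mTOR, rose (0.87, limma adjusted p = 0.00646), and the other that rose, Pik3r3, was named after its value was seen (1.11, limma adjusted p = 0.0284). The other genes that fell, also named after their values were seen, included Mtor itself (-0.46, limma adjusted p = 0.0467) and Akt2 (-0.57, limma adjusted p = 0.0287). The rest were Pik3cd (-1.14, limma adjusted p = 0.0153), Gsk3a (-0.69, limma adjusted p = 0.0111) and Gsk3b (-0.67, limma adjusted p = 0.0146). The split depended on scaling: with the length trend removed or the samples centred on their medians it was 6 lower and 4 higher. Without any 1 of the 4 mock libraries at most 2 of this list were lower.

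In the adaptor and Ras-MAPK list 4 of 21 were lower and 0 higher, with a median of -0.35, beside 19.8% lower and 13% higher of all tested genes, so the share that fell was near the background. These were the MAPK kinase Map2k2 (-0.93, limma adjusted p = 0.00741), the adaptor Grb2 (-0.78, limma adjusted p = 0.00843), the kinase Rps6ka1 (-1.26, limma adjusted p = 0.0176) and the docking protein Gab1 (-0.66, limma adjusted p = 0.0255). Among the other ligands, receptors, carriers and proteases 9 of 18 reached the filter, 2 lower and 1 higher, again beside 19.8% and 13% of all tested genes. Igf2r, which clears IGF2 to lysosomes, averaged 20.4 FPKM in mock 32 °C and 35.1 FPKM in mock 37 °C (log2 fold change -0.76, limma adjusted p = 0.0170). Insr, the insulin receptor, averaged 7.09 FPKM in mock 32 °C and 10.2 FPKM in mock 37 °C (-0.47, limma adjusted p = 0.0383). Ghr, the growth hormone receptor, averaged 36.7 FPKM in mock 32 °C and 18.2 FPKM in mock 37 °C and rose by 0.98 (limma adjusted p = 0.0485). The IGF2 mRNA-binding proteins Igf2bp1 (-0.65, limma adjusted p = 0.0116) and Igf2bp2 (-0.73, limma adjusted p = 0.0130) were 2 of 3 that fell in theirs. With the length trend removed the calls of Igf2r, Insr, Gab1, Phlpp1 and Igf2bp1 were lost, and Insr lost its call with median centring and quantile scaling too. The call of Ghr lay close to the threshold and was lost under 6 alternatives besides libraries left out: the smaller pseudocount, no filter, the highest transcript only (limma adjusted p = 0.121), quantile scaling, the replicate block and plain moderation. All of the calls in the last 2 paragraphs, and that of Phlpp1, were lost without at least 1 of the 4 mock libraries.

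**Figure D4:**
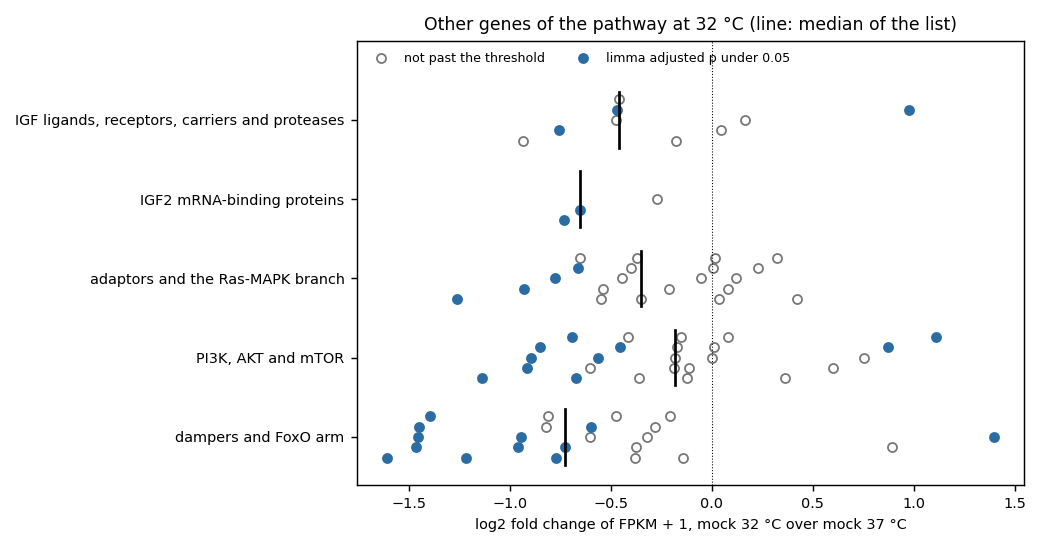
Log2 fold change of each tested gene of 5 pathway lists at 32 °C against mock 37 °C, 1 point per gene, filled where the limma adjusted p was under 0.05, with a line for the list's median. The list of dampers and the FoxO arm has a median of -0.73 and the PI3K, AKT and mTOR list a median of -0.18.

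In siCirbp 1 of the 81 tested genes of these lists passed (1.23%), beside 3.39% of all tested genes, a share no larger than the background. It was Grb10, an adaptor that binds the activated IGF1 and insulin receptors and restrains their signal. Grb10 stood at 5.29 and 4.76 FPKM in siCirbp, 5.33 and 5.19 in the libraries labelled siRbm3, and 1.68 and 1.75 in mock 37 °C. All 4 siRNA libraries were above both mock 37 °C libraries. Its log2 fold change in siCirbp was 1.15 (n = 2 per group, SE 0.15, limma adjusted p = 0.0211), and the call was lost with the highest transcript only, with the replicate block, with the 2 groups alone (limma adjusted p = 0.0640) and without any 1 mock library or siCirbp replicate 2. No gene of the 5 lists passed limma for the siRbm3 label, nor between siCirbp and siRbm3.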

How the data were processed

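The tables, as deposited by the authors, hold FPKM, coverage and length for 28702 transcripts. Coverage, as deposited, is the mean read depth per base, which is not scaled to library size. Per the submitters' processing notes reads of 76 nt were aligned with TopHat 1.1.2 to mm9, and the version of the program that made the FPKM is not given in the sources used here. PAR-CLIP sites are on mm9, each with a score of up to 1000 that the authors deposited without stating its scale.

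FPKM were summed per gene. Mapped fragments per library, 25.1 to 28.2 M, came from the ratio of coverage to FPKM. Reads per gene followed from coverage with 75 counted bases per read, beside the stated 76 nt, and 209 nt taken off each length. This pair was chosen so that most low values came out whole, which is thus no independent check. Reads were whole within 0.05 for 91.8% to 92.5% of values of genes with 1 transcript over 400 nt and under 100 reads. They serve only to show the depth behind a value. How reads with several positions were counted is not given in the sources used here.

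Genes with a mean of at least 1 FPKM were tested with limma 3.58.1 in R 4.3.3 on log2(FPKM + 1). The model had a mean for each of the 4 groups, which leaves 4 degrees of freedom, with trend and robust moderation, two-sided p-values and Benjamini-Hochberg adjustment over 10901 genes at 0.05. A fold change on this scale understates that of low genes. The fit was tested on simulated data. The 10 genes, the lists and the comparisons were chosen with earlier results of these data known. Of each pathway list up to 4 genes with the smallest adjusted p among those that passed are named per comparison. PAR-CLIP sites were counted where they overlapped a locus, and extending each locus by 1 kb was run as an alternative. Motifs were searched in the 250 bases before each RefSeq start. Alternatives were another pseudocount, other filters, the highest transcript only, median centring, quantile scaling, removal of the length trend (lowess, span 0.3), the 2 groups alone, a replicate block, plain moderation and each library left out.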

Additional observations from a re-analysis of the deposited data

How the results depend on the processing

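At 32 °C 4 of the 9 genes passed, and the count was 7 with the 2 groups alone (Igfbp4, Igfbp7 and Irs1 added) and 2 to 5 with 1 library left out. In siCirbp 2 passed. The count was 0 with a pseudocount of 0.1 FPKM, no filter, the highest transcript only, the 2 groups alone or a replicate block, 1 with a mean of at least 5 FPKM (Irs2), the length trend removed (Igfbp6) or plain moderation (Igfbp3), and 0 to 4 with 1 library left out. For the siRbm3 label it was 0 throughout, and for siCirbp against siRbm3 it was 0 to 2 with 1 library left out, the 2 without siRbm3 replicate 1. The Cirbp site in Igf1r was not kept, giving 0, when only scores in the upper part of the list counted. Why these counts moved was not tested, except that fewer libraries were fitted when some were left out.

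Libraries with the same replicate number had residual correlations of -0.153 to 0.0914. Such values from 2 libraries per group cannot show whether the numbers pair libraries, and the labels state no pairing. With the replicate block the 32 °C count was 4 and the siCirbp count 0. A crossed pairing of siCirbp and siRbm3, added after the data were seen, gave 0 calls among the 9 genes.

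With the length trend removed, uncalled directions turned to -0.093 for Igfbp6 and 0.20 for Irs1 at 32 °C, to -0.033 for Igfbp2 in siCirbp, and to 0.077 for Igf1r and 0.088 for Irs1 under the siRbm3 label, and Insr at 32 °C, called before, to 0.0071. Leaving out 1 library turned directions of uncalled genes in the siRNA groups. In siCirbp the log2 fold changes then ran from -0.80 to 0.27 for Igf1, -0.073 to 0.46 for Igfbp2, -2.44 to 0.098 for Igfbp4, -1.34 to 0.66 for Igfbp7 and -0.012 to 0.25 for Irs1. For the siRbm3 label they ran from -0.40 to 0.093 for Igf1, -0.65 to 0.48 for Igfbp4, -0.39 to 0.32 for Irs1 and -0.48 to 0.12 for Irs2. For siCirbp against siRbm3 they ran from -0.65 to 0.42 for Igf1, -0.39 to 0.14 for Igfbp2, -2.36 to 0.18 for Igfbp4, -1.80 to 0.20 for Igfbp7 and -0.20 to 0.51 for Irs1. No called value of the 9 genes changed direction under any alternative run. Apart from single libraries left out, called values kept their call 43 times and lost it 16 times.

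Over all tested genes the calls at 32 °C were 1420 higher and 2153 lower, and 3556 and 4001 with the 2 groups alone. Those in siCirbp were 302 higher and 68 lower, 2 and 11 with the 2 groups alone, and 2 and 1 with the replicate block.

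Depth limits Igfbp5, Igfbp2 (41 and 33 reads in mock 37 °C) and, at 32 °C, Igfbp3, which rest on few reads. Having 2 libraries per group limits every test.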

Other observations

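Igf2, the second IGF ligand, was picked out here after its values were seen. It stood at 1.28 FPKM from 120 reads in siCirbp replicate 1 and at 0.0544 FPKM from 5 reads in siCirbp replicate 2. Igf2 had 6 and 5 reads in mock cells at 32 °C, 0 and 0 under the siRbm3 label, and 4 and 4 in mock 37 °C, and it did not reach the filter for a test. The same 2 siCirbp libraries differed for Igfbp4 and Igfbp7. Htra1, a secreted protease known to cut IGF-binding proteins, was also chosen after its values were seen. It stood at 70.0 and 26.3 FPKM in siCirbp, against 117 and 115 FPKM in mock 37 °C, a log2 fold change of -1.41 that did not pass (SE 0.42, limma adjusted p = 0.1003).

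Genes of at least 5 FPKM whose log2(FPKM + 1) followed a called gene most closely over the 8 libraries were Klf3 (Pearson r 0.991) and Ahcyl2 (0.990) for Igf1r, and Plk1 (0.994) and Brd2 (0.993) for Igfbp3. For Igfbp2 they were Dtd1 (0.981) and Txndc12 (0.978), and for Irs2 they were Krt80 (0.974) and Adamts7 (0.971). They are the 2 highest of 8608 or 8609 candidates over libraries that fall into 4 groups, and the values are descriptions with no test.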
